A study of Mus musculus with 8 samples.

Results

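The genes of the mTORC1 core, of its lysosomal anchor Ragulator and of the inhibitor Ddit4 were followed in muscle satellite cells (SCs) of control and exercise mice. SCs are the stem cells that rebuild skeletal muscle. The members were the 10 rows of the deposited expression table, of 52636 in all, whose symbol was Mtor, Rptor, Mlst8, Rheb, Rraga, Lamtor1, Lamtor2, Lamtor4, Lamtor5 or Ddit4. The rule took them by symbol, with earlier results of these data known. Both groups were male C57B/6J mice, 10 weeks old. Control mice were sedentary, and exercise mice ran on a treadmill for 4 weeks, on 4 days per week, for 30 min per day at 12 m per min. About 800 SCs of the tibialis anterior, sorted as positive for CD34 and α7-integrin and negative for CD45, CD11b, CD31 and Sca1, went into each of 4 control and 4 exercise libraries, prepared with a single-cell amplification kit. In such libraries, fewer cells that express a gene and less of its RNA per cell cannot be told apart.

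mTORC1 is a protein kinase complex that couples growth to the supply of amino acids, energy and growth factors. When amino acids are plentiful, Rag GTPases held on the lysosome by Ragulator recruit mTORC1 to the lysosomal surface, where the GTPase Rheb switches the kinase on. Active mTORC1 promotes protein synthesis and restrains autophagy, and in SCs it is known for its part in the exit from quiescence. Ddit4, also called Redd1, is induced by hypoxia, glucocorticoids and other stress and opposes the pathway upstream of Rheb. The comparison asked whether the mRNAs of this machinery differed between SCs of control and exercise mice.

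In these libraries the machinery was sparsely covered, and most of its genes gave no usable comparison. Reads fell on 8 of the 10 genes, and Mlst8 and Ddit4 had no read in any library. Of all 52535 gene symbols, 82.8% had no read in any library. Lamtor5 was the 1 member that passed the test across all genes, with reads in every control library and none in any exercise library. Of all genes tested, 35.6% were called and 26.8% were called lower, the Lamtor5 call was lost in 4 of 21 alternatives, and the bound that its counts set did not hold without control 1, exercise 1 or exercise 2. Lamtor2 was the 1 member with reads in all 8 libraries, and its values spread so widely within both groups that no difference between them could be seen. Rptor, Rheb, Rraga and Mtor also had reads in control libraries only, but at levels where counts of 0 in the exercise libraries do not establish a fall for Rheb, Rraga and Mtor, and for Rptor the bound rested on control 1.

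Depth set the limits of each value. Reads on genes numbered 2339966 to 3013354 in control and 1011737 to 1200221 in exercise libraries, spread over 5169 to 7307 and 2348 to 3289 genes. The deposited values are FPKM, reads scaled for the length of the gene and the size of the library, and the reads behind each could be recovered. A single Lamtor5 read was worth 0.284 to 0.493 FPKM in control libraries and 0.677 to 3.93 FPKM in exercise libraries, the most in exercise 4. Mitochondrial transcripts took 2.09% to 15.3% of the reads of control libraries, 7.85% and 7.56% in exercise 1 and 2, and 50.2% and 68.7% in exercise 3 and 4. Exercise 1 and 2 differed little, and their chi-square over genes, divided by its degrees of freedom, was 3.86, against 82.6 to 711 in all other pairs within a group. Control 4 kept a median share of 0.281 of the level of 345 genes that control 1 had and control 3 lacked, and 0.714 of that of 658 genes with the reverse pattern. For exercise 3 the same shares were 0.299 for 139 genes of exercise 1 and 0.677 for 142 genes of exercise 4. Whether these libraries were separate samples was not tested, so results are also given after averaging exercise 1 with exercise 2, and after then dropping control 4 and exercise 3.

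The sort markers did not all match the label. Of 12 genes listed for SCs, 8 had reads, and Pax7, Itga7, Cdh15 and Calcr were at 0 in all 8 libraries. The SC list summed to 6.82 to 46.5 FPKM in control and 31.9 to 93.9 FPKM in exercise libraries. Sdc4, with means of 17.9 and 53.6 FPKM, and Cd34, with 0.874 and 5.54 FPKM, carried that difference. The other 6 SC genes with reads had lower means in exercise, 5 of them (Myf5, Myod1, Vcam1, Cxcr4 and Chrdl2) without a read in exercise libraries. By contrast, 12 myofibre genes, 11 of them with reads and Tnnc2 at 0, summed to 32912 to 67620 and 19592 to 59682 FPKM. None of 8 leukocyte genes had a read. All 8 fibro-adipogenic genes did, with sums of 2560 to 3455 FPKM in control and 3533 to 9332 FPKM in exercise libraries. Gsn (1343 and 4820 FPKM) and Lum (108 and 446 FPKM) carried this difference of means, while 4 of the 8, among them Pdgfra (20.3 and 5.56 FPKM) and Mfap5 (16.4 and 1.08 FPKM), had lower means in exercise. Ly6a, which encodes the excluded sort marker Sca1, had means of 3.60 and 3.69 FPKM. Of 8 endothelial genes 2 had reads, with sums of 0.0925 to 2994 and 4.42 to 26.2 FPKM, while Pecam1 and Cdh5 were at 0. They had opposite orders, with means of 1435 and 0.219 FPKM in control and exercise for Kdr, and 0.0231 and 17.2 FPKM for Tek. The 14 genes of dissociation stress all had reads and summed to 2600 to 4481 FPKM in control and 936 to 1478 FPKM in exercise libraries. The sums did not overlap, but of the single genes only Fos, Atf3, Ier3 and Hspa1a, 4 of the 14, were separate, and Jund and Hspa1b had higher means in exercise. Of 6 smooth muscle and pericyte genes 2 had reads (sums of 0 to 43.3 and 5.09 to 71.9 FPKM), and these had opposite orders, Myh11 being at 0 in control libraries and at 3.14 to 71.5 FPKM in exercise libraries, and Acta2 having means of 19.8 and 1.08 FPKM in control and exercise. Of 5 erythroid genes 4 had reads (sums of 0 to 119 and 0 to 1.56 FPKM), led by Hbb-bs with 68.4 and 32.0 FPKM in control 3 and 4. The part of these lists in the results below was not tested.

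**Figure D1:**
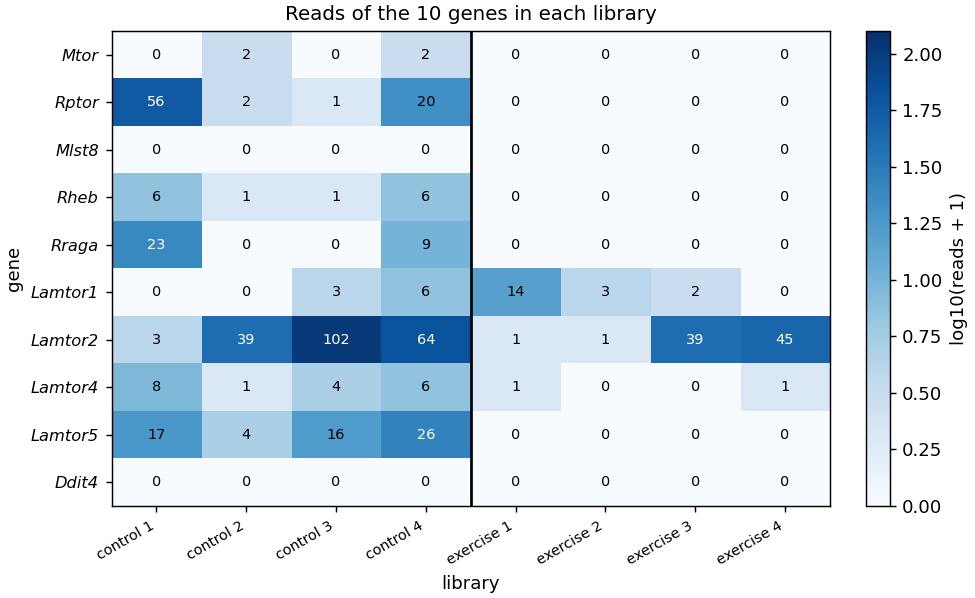
Reads of the 10 genes (vertical axis) in the 4 control and 4 exercise libraries (horizontal axis, separated by the black line). The number in each cell is the recovered read count and the colour its log10 after adding 1. The exercise side holds reads of Lamtor1, Lamtor2 and Lamtor4 and of no other member.

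The 10 genes together held 428 reads in the control and 107 in the exercise libraries, a small sum for each library. Lamtor2 took 55.0% of them, and without it 220 reads were left in control and 21 in exercise libraries. The 10 genes summed to 48.3, 18.4, 42.1 and 49.8 RPM (reads per 1000000 reads on genes) in control 1 to 4 and to 15.1, 3.95, 34.2 and 39.8 in exercise 1 to 4. The groups overlapped, since exercise 3 and 4 lay above control 2. The number of members with a read was 6, 6, 6 and 8 in control 1 to 4 and 3, 2, 2 and 2 in exercise 1 to 4. In 5 of the 8 genes with reads, the reads were all in control libraries, against 52.4% of the 9029 genes with a read in any library. In 3 of the 8, Lamtor5, Rptor and Rheb, each control library lay above each exercise library, against 16.2% of the 9029 genes.

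The sequences before the transcription start are shown for the 2 members that passed the filter on low values, Lamtor5, with reads only in control libraries, and Lamtor2, with reads in every library. Both are RefSeq sequences of GRCm38.p6, 5′ to 3′ on the strand of the gene, the 250 bases before the RefSeq start. That start differs from the gene start of the expression table, which is used for all gene positions here, in 6 of the 10 members. It lies inside the gene by 123 bases in Lamtor2, 263 in Rheb, 64 in Ddit4 and 5 in Rraga, and before it in Mtor (by 29 bases) and Lamtor1 (by 67 bases). Thus 123 bases of the Lamtor2 stretch, its GC box included, and the whole Rheb window fall within the gene as the table places it.
Lamtor5, chr3:107278608-107278857, plus strand: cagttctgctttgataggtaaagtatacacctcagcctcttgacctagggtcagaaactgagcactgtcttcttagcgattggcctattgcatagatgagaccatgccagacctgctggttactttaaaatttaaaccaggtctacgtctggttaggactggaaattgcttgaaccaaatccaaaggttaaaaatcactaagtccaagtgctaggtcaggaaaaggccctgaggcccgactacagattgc
Lamtor2, chr3:88552952-88553201, minus strand: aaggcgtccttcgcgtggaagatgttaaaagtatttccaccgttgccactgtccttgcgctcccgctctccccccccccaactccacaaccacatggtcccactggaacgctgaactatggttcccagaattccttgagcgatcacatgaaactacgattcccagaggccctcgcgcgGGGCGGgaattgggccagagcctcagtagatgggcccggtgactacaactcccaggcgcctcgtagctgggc
Capitals mark a match to GGGCGG, the GC box. Windows of 250 bases before to 50 after the start were found for all 10 members, and both strands were searched. GGGCGG was present in 4 of them (Mtor, Rheb, Lamtor2 and Ddit4) and in 35.7% of all 32851 windows. CACGTG, the core of the E-box bound by TFEB and other basic helix-loop-helix factors and known from lysosomal genes, was in 3 of the 10 (Rheb, Lamtor1 and Lamtor4) and in 7.15% of all windows. These matches are shown in capitals with 10 bases on each side, Lamtor4 having a pair of them.
Rheb, chr5:24842442-24842467, minus strand: cgcgcgcggtCACGTGggtgtgttgt
Lamtor1, chr7:101905759-101905784, plus strand: gccttcctatCACGTGccgcgggtcc
Lamtor4, chr5:138255352-138255377, plus strand: agaaagttaaCACGTGaacagctttt
Lamtor4, chr5:138255368-138255393, plus strand: aacagcttttCACGTGtaaaccaaac
ACGTG, the core of the hypoxia response element, lies inside each CACGTG and was in 5 of the 10 (Rptor, Rheb, Lamtor1, Lamtor4 and Ddit4), against 19.6% of all windows. CCGGAAGT, bound by ETS factors, was in Mtor and Rraga, 2 of the 10, and in 3.89% of all windows. Lamtor5 held none of these motifs. A match describes letters in a window and shows no binding.

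Of the kinase and its subunits, the reads were few. Mtor, the kinase itself (chr4:148448611-148557683, 56 exon blocks), had 0, 2, 0 and 2 reads in control 1 to 4 and none in the exercise libraries. That was 0.0646 FPKM in control 2 and 0.0497 FPKM in control 4. At the pooled control share, 1.64 reads would have fallen in all 4 exercise libraries together, so the absence of Mtor reads there is not interpretable at this depth. The groups overlapped, and the exact two-sided permutation test over the 70 assignments of 8 libraries gave p = 0.429 (n = 4 and 4).

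Rptor, which encodes Raptor, the scaffold that presents substrates to the kinase (chr11:119602905-119899576), had 56, 2, 1 and 20 reads in control 1 to 4. These were 1.81, 0.0485, 0.0190 and 0.373 FPKM, and no exercise library had a read. Control 1 held most of the Rptor reads, and control 2 and 3 held 1 or 2. The exact permutation p was 0.0286, the smallest that 4 libraries against 4 allow. If 3 reads are allowed for each count of 0, the control mean was at least 1.81-fold higher than the exercise mean. Without control 1 this ratio was 0.471, so the bound rests on that library. It was 3.57 without exercise 4, where 3 reads would be worth 0.773 FPKM, and 2.36, 2.39 and 2.01 without control 2, 3 or 4. Mlst8 (chr17:24473550-24479078), whose product binds the kinase domain, was listed at 0 in all libraries. It shares 997 exon bases with Bricd5 on the opposite strand, which had no read either.

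Rheb, the GTPase that activates the kinase (chr5:24802823-24842624), had 6, 1, 1 and 6 reads in control 1 to 4 and none in exercise libraries. On the FPKM scale these were 0.339, 0.0423, 0.0332 and 0.195. No exercise library reached the lowest control value (exact permutation p = 0.0286), but at the pooled control share 5.73 reads would have been found in the exercise libraries, or 4.16 when shares are taken of nuclear reads. Allowing 3 reads for each 0 gave an exercise mean of 0.544 FPKM, above every control library.

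Rraga, the RagA subunit of the Rag heterodimer (chr4:86575668-86577285, a single exon), had 23, 0, 0 and 9 reads in control 1 to 4 and none in the exercise libraries. Its FPKM was 6.20 in control 1 and 1.40 in control 4. Control 2 and 3 were as empty as the exercise libraries, so the groups overlapped (exact permutation p = 0.429). Adding the reads of control 1 and 3 in the shares given above would place 7.72 Rraga reads in control 4, against the 9 found. For Rptor it would place 19.4 there, against 20 found, for Lamtor2 68.5 against 64, for Lamtor4 5.33 against 6 and for Lamtor5 16.3 against 26. Mtor (0 against 2), Rheb (2.67 against 6) and Lamtor1 (1.98 against 6) had more reads in control 4 than these shares give. In exercise 3, the shares of exercise 1 and 4 give 32.0 Lamtor2 reads against 39 found, 4.74 Lamtor1 reads against 2 and 1.04 Lamtor4 reads against 0.

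Ragulator is a scaffold of 5 proteins, in which Lamtor1 fastens the complex to the lysosomal membrane and wraps around the roadblock-domain pairs of Lamtor2 with Lamtor3 and of Lamtor4 with Lamtor5. Its 4 members here did not share a pattern. Lamtor1 (chr7:101905904-101926675) had 0, 0, 3 and 6 reads in control 1 to 4 and 14, 3, 2 and 0 reads in exercise 1 to 4. It was the member with more reads in exercise than in control libraries, 19 against 9, where 3.69 would have been found at the pooled control share. In FPKM the control libraries had 0, 0, 0.239 and 0.468 and the exercise libraries 2.60, 0.585, 0.561 and 0. The groups overlapped through exercise 4, and the exact permutation p was 0.200. Of the 19 exercise reads 14 were in exercise 1. The gene shares 600 exon bases with Lrrc51 on the opposite strand, which had 2 reads in control 1 and none elsewhere.

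Lamtor2 (chr3:88549819-88553074) had 3, 39, 102 and 64 reads in control 1 to 4 and 1, 1, 39 and 45 reads in exercise 1 to 4. These were 1.07, 10.5, 21.5 and 13.2 FPKM in control and 0.491, 0.515, 28.9 and 128 FPKM in exercise libraries. In FPKM, exercise 1 and 2 were the lowest and exercise 3 and 4 the highest of all 8 libraries, while in reads control 3 and 4 were the highest. The means were 11.5 ± 8.40 FPKM (SD, n = 4) in control and 39.5 ± 60.6 FPKM (SD, n = 4) in exercise libraries. The log2 fold change in log2(FPKM + 1), exercise over control, was 0.05 (SE 1.51, limma with Benjamini-Hochberg adjustment over 4328 genes, adjusted p = 0.978). An SE of this size leaves large changes in either direction possible.

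The scale decided how far exercise 4 stood out. As a share of reads, Lamtor2 took 38.9 RPM in exercise 4 (95% exact interval 28.4 to 52.1) and 33.8 RPM in control 3 (27.6 to 41.1), so their intervals overlapped. As a share of nuclear reads these 2 libraries had 124 and 40.0 per 1000000. On the FPKM scale they had 128 and 21.5. In exercise 4, 68.7% of reads were mitochondrial and 1 Lamtor2 read was worth 2.85 FPKM, against 0.210 FPKM in control 3. The intervals cover counting error only, as reads after amplification do not each stand for a molecule. Its fitted direction changed with the scaling. The log2 fold change was -0.64 with equal read totals, -0.03 with equal totals of nuclear reads and 1.20 with quantile normalization. With array quality weights, which gave the libraries unequal weights, it was -3.45 (limma adjusted p = 0.00564).

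**Figure D2:**
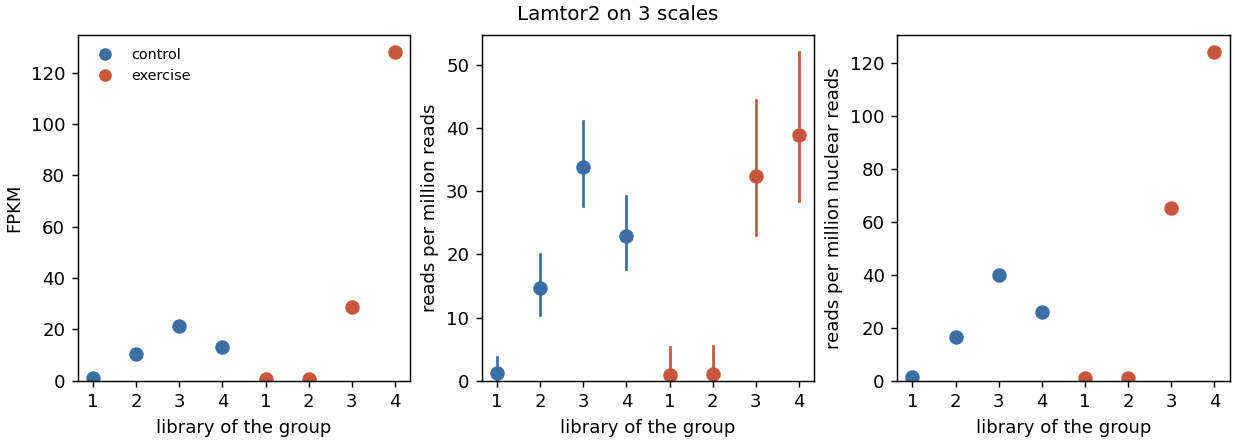
Lamtor2 in each of the 4 control and 4 exercise libraries (horizontal axis) in FPKM, in RPM and in reads per 1000000 nuclear reads (vertical axes, from 0). Vertical lines in the middle panel are 95% exact intervals. Exercise 4 stands at 128 FPKM against 28.9 in exercise 3, but at 38.9 against 32.5 RPM.

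Lamtor4 (chr5:138255482-138259398) had 8, 1, 4 and 6 reads in control 1 to 4 and 1, 0, 0 and 1 in exercise 1 to 4. In FPKM these were 2.68, 0.251, 0.787 and 1.16 in control and 0.459, 0, 0 and 2.67 in exercise libraries. The 1 read of exercise 4 thus gave almost the same FPKM as the 8 reads of control 1. The groups overlapped (exact permutation p = 0.429), and the pooled control share would have placed 7.78 reads in the exercise libraries, where 2 were found. With a mean just under 1 FPKM, Lamtor4 missed the filter on low values.

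Lamtor5, the partner of Lamtor4 (chr3:107278858-107284082), had 17, 4, 16 and 26 reads in control 1 to 4 and none in the exercise libraries. In FPKM the control libraries had 8.38, 1.48, 4.64 and 7.38, a mean of 5.47 ± 3.10 (SD, n = 4). The groups did not overlap, with control 2 the lowest of the control libraries. Its fitted log2 fold change in log2(FPKM + 1) was -2.53 (SE 0.58, limma adjusted p = 0.0126), and it was 1 of 2 members that passed the filter on low values, in its case through the control libraries alone. Of the 4328 genes tested, 35.6% were called and 26.8% were called lower in exercise, so a call of 1 in 2 members is not a result about the members. The median of all genes tested was itself -1.42, which leaves -1.11 for Lamtor5 relative to that median. With Lamtor5 at 0 in exercise, these values depend on the pseudocount and are no bound. With a pseudocount of 0.1 the fitted value was -5.54 and the difference from the median -2.96, and with quantile normalization they were -1.37 and -0.93, with an all-gene median of -0.44.

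The counts, unlike the fit, set a bound on the Lamtor5 difference. At the pooled control share, 25.8 Lamtor5 reads would have been found in the exercise libraries, or 18.7 as a share of nuclear reads. Allowing 3 reads for each 0 gave 2.03, 2.13, 3.06 and 11.8 FPKM in exercise 1 to 4. The control mean was then at least 1.15-fold higher than the exercise mean. This ratio was 2.27 without exercise 4 and below 1 without control 1 (0.947), exercise 1 (0.967) or exercise 2 (0.973). Control 2, with 1.48 FPKM, lay below each of these limits. Lamtor5 was lower in exercise in all 21 alternatives and called in 17 of them, with limma adjusted p from 2.34e-05 to 0.458. The call was lost with quantile normalization (adjusted p = 0.0642), with voom on the recovered reads (0.0560) and without exercise 3 (0.0536). After averaging exercise 1 with exercise 2 it was 0.0485. Dropping control 4 and exercise 3 as well gave 0.458, a fit in which no gene at all was called and 451 of 4328 had an unadjusted p under 0.05. The summed level of the dissociation stress genes given above, with 4 of the 14 genes separate on their own, was also higher in every control than in every exercise library, and that of the fibro-adipogenic genes was lower in every control than in every exercise library. Their part in this result was not tested.

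**Figure D3:**
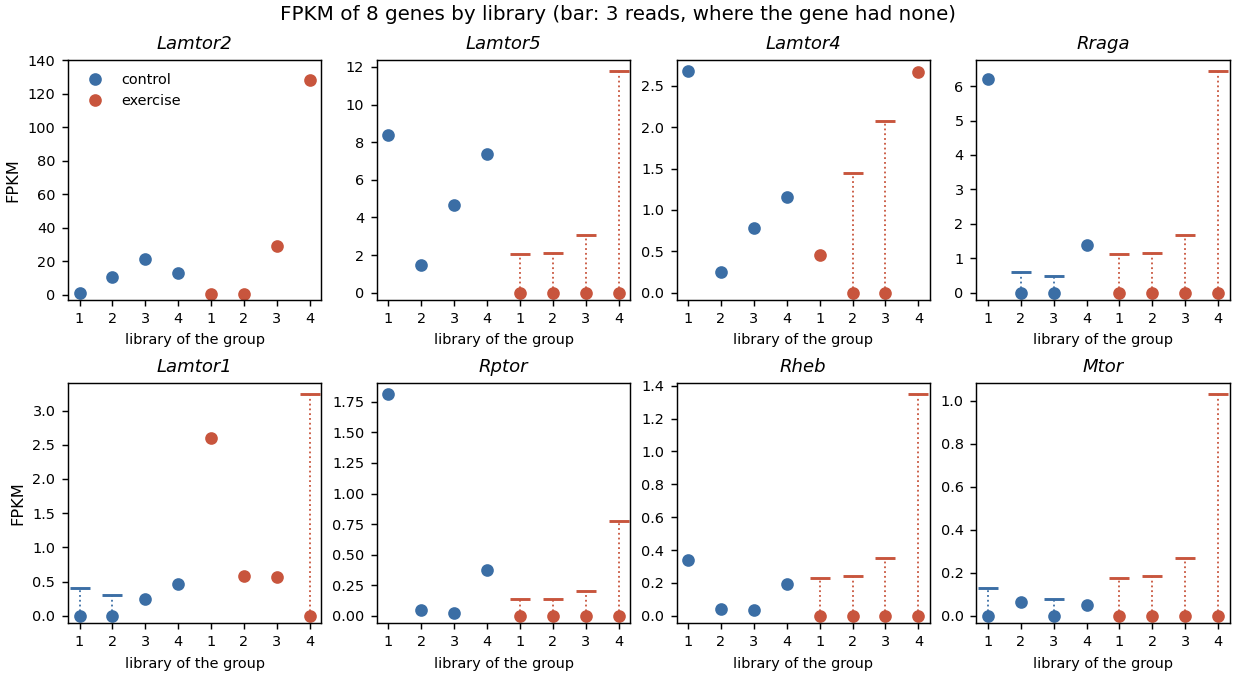
FPKM of the 8 genes with reads (vertical axes, 1 scale per gene) in each of the 4 control and 4 exercise libraries. A bar above a point at 0 marks the FPKM that 3 reads would have had there. For Lamtor5 these bars stand at 2.03 to 11.8 FPKM in exercise libraries, above the 1.48 FPKM of control 2.

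Ddit4 (chr10:59949669-59951834) had no read in any of the 8 libraries, so nothing can be said of a response of this gene to exercise. The stretch before its RefSeq start, of which 64 bases lie within the gene as the table places it, is shown because the gene is known for its induction by stress, with GGGCGG and ACGTG in capitals.
Ddit4, chr10:59951771-59952020, minus strand: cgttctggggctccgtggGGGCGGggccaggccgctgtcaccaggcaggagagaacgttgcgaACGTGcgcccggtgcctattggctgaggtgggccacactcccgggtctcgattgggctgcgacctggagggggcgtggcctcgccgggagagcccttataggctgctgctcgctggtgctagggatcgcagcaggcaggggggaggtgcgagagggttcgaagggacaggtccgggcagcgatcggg
Its paralogue Ddit4l, another inhibitor of mTORC1 known from muscle, was well covered. Ddit4l had 234, 45.8, 324 and 240 FPKM in control 1 to 4 and 15.4, 13.3, 26.9 and 106 FPKM in exercise 1 to 4. The groups overlapped on the FPKM scale, since exercise 4 lay above control 2. On that scale 89 reads in exercise 4 gave 106 FPKM, and 409 reads in control 2 gave 45.8 FPKM. The log2 fold change was -2.57 (SE 0.91, limma adjusted p = 0.0515; exact permutation p = 0.0571), so it did not pass either test. It was called in 8 of 21 alternatives, among them those without exercise 4 (limma adjusted p = 0.0147) and without control 2 (0.0322). The 8 also held the fits with equal totals of reads (limma adjusted p = 0.0249) and of nuclear reads (0.0457). In reads it had 409 to 3685 in control and 62 to 89 in exercise libraries.

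When the filter on low values was dropped, 9029 genes and 8 members were tested, and Lamtor5 was again the member called (limma adjusted p = 0.0288). The others had adjusted p of 0.129 (Rheb), 0.210 (Rptor), 0.215 (Rraga), 0.290 (Lamtor1), 0.361 (Mtor), 0.556 (Lamtor4) and 0.978 (Lamtor2). As no pattern of Mtor or Ddit4 could be seen, the genes most like them over the 8 libraries were simply steady ones. These were Ubb, Dcn and Sptbn1 for both. The root mean square difference of centred log2(FPKM + 1) was 0.20, 0.24 and 0.27 for Mtor and 0.21, 0.24 and 0.25 for Ddit4.

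The other genes of the pathway were read in 10 lists of 108 genes, of which 90 had reads, 41 had them in control libraries only and 46 were tested. Over all 9029 genes with a read in any library, 52.4% had reads in control libraries only. The test called 12 lower and 1 higher in exercise, 13 of 46, again against 35.6% of all genes tested. Their median log2 fold change was -1.22, against -1.42 for all genes tested. Of the 13 called, 8 (Itfg2, Slc38a9, Akt1, Ulk1, Atp6v0b, Atp6v1e1, Atp6v1h and Ankrd37) had no exercise read and passed the filter on low values through control libraries alone, so that a difference was built into their selection. The same holds for Prkab2 and Tsc22d3, whose exercise means were 0.517 and 0.405 FPKM, and in the other direction for Larp1, whose control mean was 0.209 FPKM. With no filter, 4 of 90 pathway genes were called, against 840 of all 9029 genes tested. Fitted fold changes of genes at 0 in a group depend on the pseudocount and are not given for these 8.

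**Figure D4:**
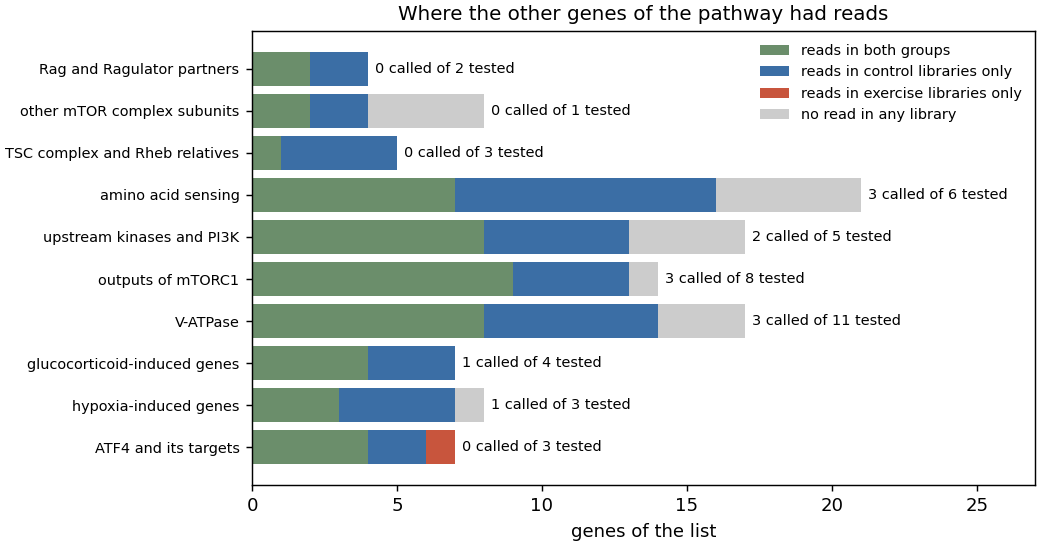
Number of genes of each of the 10 lists (horizontal axis) with reads in both groups, in control libraries only, in exercise libraries only or in no library, with the count called and tested at the end of each bar. Control-only genes are 41 of the 90 with reads, against 52.4% of all genes with a read in any library.

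Among the direct partners, Lamtor3 had 2 reads in control 3 and 1 in control 4, and Rragb had 2 reads in control 3. Rragc and Rragd, which pair with RagA or RagB, had many more. Rragd had 29.5, 52.5, 31.8 and 29.6 FPKM in control 1 to 4 and 0, 0, 65.6 and 345 FPKM in exercise 1 to 4, so exercise 1 and 2 lacked the gene and exercise 3 and 4 exceeded every control library. Rragc had 16.3, 0.0977, 0 and 3.005 FPKM in control and 0, 0, 8.10 and 45.7 FPKM in exercise libraries. Akt1s1, which encodes the mTORC1 inhibitor Pras40, had 11.9, 0, 0 and 1.63 FPKM in control and 1.36, 1.43, 14.7 and 77.9 FPKM in exercise libraries. These 3 genes shared with Lamtor2 a highest FPKM in exercise 4 and values of 0 to 1.43 FPKM in exercise 1 and 2. In reads, not scaled for depth, Rragd, Rragc and Akt1s1 had 514, 44 and 69 in exercise 4. Their highest counts, 831, 125 and 84 reads, were in control libraries. None was called (adjusted p = 0.482, 0.729 and 0.232 for Rragd, Rragc and Akt1s1 by limma), and none had an unadjusted p under 0.05 in that fit or by voom. Of the 21 alternatives, array quality weights called Rragd (log2 fold change -4.91, limma adjusted p = 0.00377), and quantile normalization gave Akt1s1 an unadjusted limma p under 0.05 (adjusted p = 0.0633). Deptor, another mTOR inhibitor, had 0, 10, 15 and 6 reads in control and 9, 10, 13 and 9 in exercise libraries. These were 0, 0.368, 0.433 and 0.170 FPKM in control and 0.607, 0.706, 1.32 and 3.52 FPKM in exercise libraries, so all exercise values were the higher (exact permutation p = 0.0286), but the gene was under the filter. Rictor and Mapkap1 of mTORC2 had 5 and 4 reads in all, all in control libraries.

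In the TSC complex, which switches Rheb off, and its relatives, no gene passed the test in the fit used throughout. Tsc2 had 8.77 and 7.76 FPKM in control 3 and 4 and none elsewhere (limma adjusted p = 0.138). Tbc1d7 had 80.1, 0.646, 0.317 and 14.3 FPKM in control 1 to 4 and none in exercise libraries (adjusted p = 0.0863). Tsc1 had 4 reads in all. Of the 3 genes tested in this list, Ddit4l and Tbc1d7 had an unadjusted p under 0.05 by limma on FPKM, and 2 genes did by voom, none after adjustment. Besides Ddit4l, single alternatives called Tbc1d7 (pseudocount of 0.1, limma adjusted p = 0.0295) and Tsc2 (array quality weights, 0.000294).

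Of 21 genes of amino acid sensing, 16 had reads, 6 were tested and 3 were called, all lower in exercise. Sec13, a subunit of GATOR2 that also serves in vesicle coats and nuclear pores, had 47.6, 7.90, 3.38 and 14.6 FPKM in control 1 to 4 and 1.13, 0.591, 0.850 and 2.18 FPKM in exercise 1 to 4, without overlap (log2 fold change -2.63, SE 0.82, limma adjusted p = 0.0363). Itfg2, of the KICSTOR complex, and Slc38a9, a lysosomal arginine transporter that signals to Ragulator, each had reads in control 2, 3 and 4 and in no other library. Itfg2 had 17.3, 11.3 and 7.07 FPKM there (adjusted p = 0.0398) and Slc38a9 had 12.6, 7.88 and 4.96 FPKM (adjusted p = 0.0436). Since control 1 had none, both overlapped with the exercise libraries, and both calls were lost with no filter, by voom and in 7 of the 8 fits without 1 library. Castor2, a gene of this list found under an older symbol, had at most 0.102 FPKM in control libraries. It had 48.1 and 254 FPKM in exercise 3 and 4 and none in exercise 1 and 2 (limma adjusted p = 0.130).

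Of 17 upstream kinases and PI3K genes, 13 had reads, 5 were tested and 2 were called, both lower. Akt1, the kinase upstream of mTORC1 that the study follows, had 0, 151, 531 and 320 reads in control 1 to 4 and none in exercise libraries (limma adjusted p = 0.0365). Control 1 was as empty as the exercise libraries, and the call was lost with no filter, quantile normalization, voom and in 7 of the 8 fits without 1 library. Akt2 had 72, 6, 11 and 26 reads in control and 2, 0, 0 and 0 in exercise libraries and was under the filter. Prkab2, a subunit of the energy sensor AMPK, had 28.1, 4.36, 3.67 and 6.35 FPKM in control and 0, 0, 0.708 and 1.36 FPKM in exercise libraries (log2 fold change -2.59, SE 0.75, limma adjusted p = 0.0304).

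Of 14 outputs of mTORC1, 13 had reads, 8 were tested and 3 were called. Larp1, a repressor of the translation of ribosomal protein mRNAs, was the 1 gene of all lists called higher. It had 0.128, 0, 0.488 and 0.2205 FPKM in control and 15.8, 12.0, 9.11 and 1.52 FPKM in exercise libraries, without overlap (log2 fold change 2.85, SE 0.71, limma adjusted p = 0.0175; 8.78% of all genes tested were called higher). Eif4b, a translation initiation factor, had 0.905, 331, 209 and 135 FPKM in control and 0.163 to 8.11 FPKM in exercise libraries (limma adjusted p = 0.0402), with control 1 inside the exercise range. Ulk1, the kinase that starts autophagy, had 15.0, 7.27 and 5.996 FPKM in control 2, 3 and 4 and no read in other libraries (limma adjusted p = 0.0427). The translation repressor Eif4ebp1 had 28.6, 13.7, 8.52 and 13.6 FPKM in control and 5.99, 5.42, 16.4 and 93.2 FPKM in exercise libraries, with a log2 fold change of 0.07 (SE 0.95, adjusted p = 0.951). Rps6, whose phosphorylation the study used as a readout of mTORC1, had 102 to 260 FPKM in control and 90.5 to 295 FPKM in exercise libraries (adjusted p = 0.491).

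Of 17 genes of the V-ATPase, the lysosomal proton pump that works with Ragulator in amino acid sensing, 14 had reads, 11 were tested and 3 were called, all lower and with no read in exercise libraries. Atp6v0b had 2.34, 25.8, 24.6 and 12.6 FPKM in control 1 to 4 (limma adjusted p = 0.00835). With 3 reads allowed for each 0, its control mean was at least 7.98-fold higher (15.8-fold without exercise 4). Atp6v1e1 had 187, 11.3, 5.49 and 40.7 FPKM in control 1 to 4 (limma adjusted p = 0.00891), at least 59.7-fold higher by the same rule (18.8-fold without control 1 and 118-fold without exercise 4). For both, every control library was above the exercise libraries. Atp6v1h lacked reads in control 1 and had 15.3, 9.41 and 7.78 FPKM in control 2, 3 and 4 (limma adjusted p = 0.0395). Of the 8 not called, 3 had a positive log2 fold change, which was 1.76 for Atp6ap1 (means of 0.0360 and 3.32 FPKM, limma adjusted p = 0.0545), 2.31 for Atp6v1b2 (adjusted p = 0.139) and 0.92 for Atp6v0d1 (adjusted p = 0.352).

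**Figure D5:**
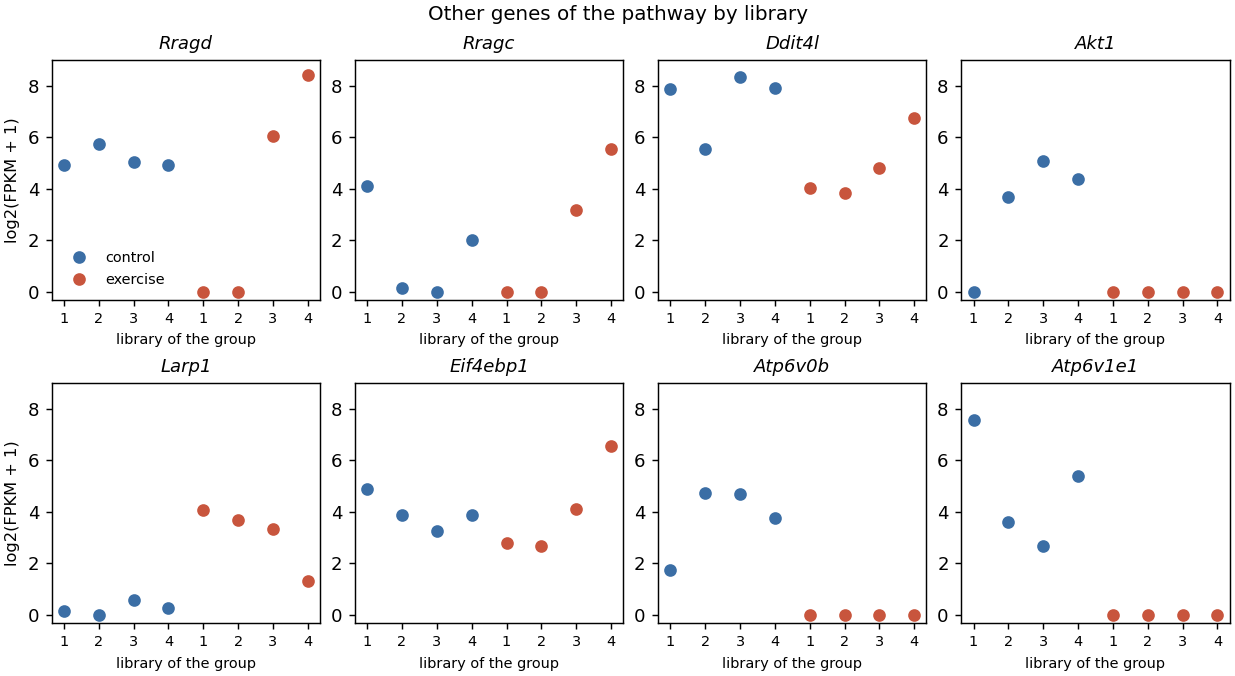
log2(FPKM + 1) of 8 other genes of the pathway (vertical axes) in each of the 4 control and 4 exercise libraries. Rragd and Rragc are at 0 in exercise 1 and 2 and highest in exercise 4, while Akt1, Atp6v0b and Atp6v1e1 are at 0 in all exercise libraries.

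The last 3 lists held 22 genes of settings that induce Ddit4, of which 21 had reads, 10 were tested and 2 were called, both lower. Tsc22d3, the glucocorticoid-induced gene known as Gilz, had 70.3, 9.18, 49.2 and 53.8 FPKM in control and 0.689, 0.722, 0.208 and 0 FPKM in exercise libraries (log2 fold change -4.78, SE 0.77, limma adjusted p = 0.002997). Fkbp5, of the same list, had the opposite order in exercise 1 to 3, with 8.08, 7.58 and 2.55 FPKM against at most 0.362 FPKM in control libraries, and none in exercise 4 (adjusted p = 0.0787). Of the 4 genes tested in this list, 2 were called by voom, 2 without exercise 4 and 4 with array quality weights. It was 0 of 4 after averaging exercise 1 and 2 and dropping control 4 and exercise 3. Ankrd37, a hypoxia-induced gene, had reads in control 2, 3 and 4 and in no other library (18.2, 12.3 and 7.01 FPKM, limma adjusted p = 0.0398). No gene of the ATF4 list was called in that fit or by voom, and none of its 3 tested genes had an unadjusted p under 0.05 by limma on FPKM or by voom. Atf4 itself had 16.7, 101, 57.1 and 36.8 FPKM in control and 374, 365, 203 and 10.1 FPKM in exercise libraries, so 3 exercise libraries lay above every control library and exercise 4 lay below them all (adjusted p = 0.282). Exercise 4 decided this, since without it Atf4 was called higher (log2 fold change 2.76, limma adjusted p = 0.0156), as it was with array quality weights.

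Few of these calls held when libraries were doubted, and calls over all genes fell as well. After averaging exercise 1 with exercise 2, 3 pathway genes were called in place of 13, and 603 of all genes in place of 1541. Dropping control 4 and exercise 3 as well left 0 pathway genes called, with 3 of 46 at an unadjusted p under 0.05 by limma. That fit called none of the 4328 genes tested, of which 451 had an unadjusted p under 0.05 by limma. Its losses are therefore not particular to these genes. Atp6v0b, Atp6v1e1 and Tsc22d3 were each called in 20 of 21 alternatives and missed in that last fit, where no gene was called. The other 10 were called in 7 to 15 of their 20 or 21 alternatives, Akt1 in 8 of 20 and Larp1 in 15 of 21.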

How the data were processed

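RNA sequencing covered 4 control and 4 exercise libraries, read as 150-base pairs. The authors state bowtie for alignment, Cufflinks for FPKM, HTSeq for counts and DESeq2 for their tests. The submitters' processing notes name Bowtie 0.12.9, Cufflinks 2.1.1 and mm10. The deposited FPKM values were whole multiples of 1 step per library after multiplication by gene length (tolerance 0.001), which gave the reads. In place of a read total, each library's values hold its median-of-ratios size factor times the geometric mean total, so the FPKM deposited by the authors are already scaled between libraries. The paper counts the libraries as mice, which the labels do not state. Were they not separate mice, p-values would measure only technical spread. Rows sharing a symbol were summed, and Castor1 and Castor2 were found by gene ID.

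The filter on low values kept 4328 genes whose mean over all libraries reached 1 FPKM. Their log2(FPKM + 1) was fitted by limma 3.58.1 under R 4.3.3 (lmFit, eBayes with a trend, Benjamini-Hochberg adjustment, calls under 0.05). The recovered reads were fitted by voom as an alternative, and the authors' count test was not run. Fold changes on this scale understate those of low genes. Single genes were compared by exact two-sided permutation over 70 assignments. A count of 0 was taken to allow 3 reads per library. The fit was tested on simulated data. Positions are from the table, on GRCm38 (99.7% of identifiers were in GENCODE M21, 95.2% of these with the same coordinates).

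The members and lists were chosen with earlier results of these data known. All members are named. Of the lists, the rule named the called genes (at most 5 per list) and Akt1 and Akt2. Other genes of the lists were named after their values were seen, and 1 tested gene of the lists is not reported here. The alternatives were another pseudocount (0.1), other filters, quantile normalization, equal totals of reads or nuclear reads, no trend, array weights, the replicate number as a block, voom, thinning to 1011737 reads, averaging exercise 1 and 2, also leaving out control 4 and exercise 3, and leaving out each library.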

Additional observations from a re-analysis of the deposited data

Results flagged for a closer look

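A single library stood far from the rest of its group in 4 of 31 groups of 4 libraries with a spread, by Dixon's test at 95%. These groups were those of the members, the called genes of the lists, Akt1 and Akt2. For independent, normal values 1.55 would be expected. Sparse FPKM from shared libraries are neither, so the 2 counts are no comparison with chance. Eif4b had 8.11 FPKM in exercise 4, with a gap of 0.873 of the group's range to the next library. Prkab2 had 28.1 FPKM in control 1, with a gap of 0.890 of the range. Akt2 had 4.40 FPKM in control 1, with a gap of 0.845 of the range, and 0.168 FPKM from 2 reads in exercise 1, where the other exercise libraries had none. No gene of the mTORC1 core or Ragulator was among those flagged. Other genes named here were not screened. Of these, Rps6, Eif4ebp1 and Ddit4l had 295, 93.2 and 106 FPKM in exercise 4. In the other exercise libraries they had at most 102, 16.4 and 26.9 FPKM.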

How the results depend on the processing

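The number of members called was 1, and it was 0 with quantile normalization, voom, and the average of exercise 1 and 2 fitted without control 4 and exercise 3, 2 with array quality weights, and 0 to 1 when each library was left out (0 without exercise 3). The gene called in the main fit was Lamtor5, lower in all 21 alternatives. The direction of Lamtor2 (0.05 in log2) reversed with a pseudocount of 0.1 (-0.35), equal totals of reads (-0.64), equal totals of nuclear reads (-0.026), array quality weights (-3.45) and voom (-0.61), and ranged from -1.20 to 0.95 when each library was left out. It was lower without control 1 (-0.67), exercise 3 (-0.49) or exercise 4 (-1.20). Of these only array quality weights gave an adjusted p under 0.05, and the cause was not tested.

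The number of other pathway genes called was 13. It was 4 with no filter, 8 with 1 FPKM in at least 4 libraries (fewer genes tested), 7 with quantile normalization or voom, 35 with array quality weights, 3 when exercise 1 and 2 were averaged, 0 when control 4 and exercise 3 were then dropped, and 3 to 15 when each library was left out. It was 3 without control 4, exercise 1, exercise 2 or exercise 3, 6 without control 3 and 8 without control 2. With the replicate number as a block, 6 pathway genes and 1 member were called, and 1059 of all genes in place of 1541. Deviations of libraries with the same number correlated at -0.017 to 0.039, so the numbers were not taken to pair them. Over all genes, 941 were called with quantile normalization, 375 of them lower, against 1161 of 1541, and 840 with no filter, 1121 with 1 FPKM in 4 libraries, 2978 with array quality weights, 603 when exercise 1 and 2 were averaged, 0 when control 4 and exercise 3 were then dropped (451 at an unadjusted p under 0.05 by limma), and 531 to 1890 when each library was left out. Depth limits the members other than Lamtor2, Lamtor5 included, to bounds or to statements on reads found.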
